A study of Caenorhabditis elegans with 161 samples.

Results

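The Notch pathway of the nematode Caenorhabditis elegans was followed here through 10 genes: the receptors glp-1 and lin-12, the DSL-family ligand genes apx-1, lag-2 and dsl-3, the nuclear factor lag-1, and the REF-1 family genes ref-1, hlh-25, hlh-27 and hlh-29. They were found by RefSeq locus tag among the 20687 genes of a count table, and each matched 1 row. Whole embryos of 20 strains were profiled at 0, 60, 180, 270, 440, 650 and 830 min after the 4-cell stage, with 1 library per strain and stage, each from a pool of 10 embryos. N2, the laboratory reference strain, stands among them, and the other 19 are numbered lines from a mutation-accumulation experiment, in which each line passes through severe bottlenecks. A second set of 21 libraries repeats line 522, with 3 libraries at each of 7 time points called A to G. All embryos were cut out of adults, washed in bleach solution, collected at the 4-cell stage and grown on at 20 °C. The letters A to G stand in the sample descriptions and follow the numbered time points of the titles. They were set beside the stages in order, since for 18 of the 21 the labelled time disagrees with the title. The labels do not state whether pools came from separate cultures, and p-values thus measure only the spread between these libraries, which may be technical.

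Notch receptors are membrane proteins that are cleaved when a ligand on a neighbouring cell binds them. The freed intracellular part enters the nucleus and, with the DNA-binding protein LAG-1, turns on target genes. In the worm embryo GLP-1 is made from maternal mRNA in the anterior blastomeres, and the ligand APX-1 on the P2 blastomere signals to its neighbour ABp. The REF-1 family proteins are divergent basic helix-loop-helix repressors, and members of the family are direct targets of Notch signalling in descendants of the AB blastomere.

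The strain libraries held 5653 to 525902 gene counts, with a median of 57199, and the repeats 58543 to 623958, with a median of 219346. Levels are given as CPM, a gene's reads scaled to a common library total, and a single library at 0 may be too shallow to show a low transcript. CEL-Seq counts the 3′ end of a transcript, so levels of different genes in CPM are not scaled by length. The summed level of 4 maternal transcripts (oma-1, oma-2, mex-5 and pie-1) had a median of 5186 CPM at 0 min, 1392 CPM at 60 min and 98.7 CPM at 180 min, and that of 4 early zygotic genes (pes-10, end-1, end-3 and vet-6) was 1.42, 1344 and 40.6 CPM. The 5 sperm markers had a median of 0 CPM at each stage. The 6 yolk genes of the adult gut ranged from 26.5 to 6672 CPM at 0 min. From 0 to 60 min 4 of the 6 rose at least 2-fold (edgeR fit, adjusted p under 0.05), and from 60 to 180 min 5 fell. In the repeats their summed median was 4120 CPM at A, 4270 CPM at B and 24.3 CPM at G. The adult germline genes gld-1 and rme-2 had a summed median of 116 CPM at 0 min and 13.4 CPM at 60 min. That of myo-3, unc-54, asp-1 and ifb-2, of muscle and gut, was 96.2 and 184 CPM. The part of these markers in any result was not tested. In whole embryos, fewer cells of a type and less RNA per cell cannot be told apart.

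The receptors changed places during the first 180 min. glp-1, the receptor of the early blastomeres and the germ line, was highest at 0 min and had fallen by 180 min. lin-12, the receptor used in later cell-fate decisions, was almost absent at 0 min, rose by 60 min, stayed near that level to 270 min and fell by 440 min. At 0 min glp-1 ran from 84.8 CPM in line 529 through a median of 165 to 364 CPM in line 517, and all 20 libraries held it. At 60 min its lowest value was 0, its median 46.3 and its highest 179 CPM, and at 180 min the median was 12.1 and the highest 48.1 CPM. Each of the 20 strains had less glp-1 at 60 than at 0 min, although the ranges of the stages overlapped. Mean levels were 187 ± 79.2, 57.8 ± 48.1 and 13.97 ± 15.5 CPM (SD, n = 20) at 0, 60 and 180 min.

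The fall of glp-1 from 0 to 60 min was -1.11 ± 0.25 on the log2 scale (SE, adjusted p = 5.67e-05), and that from 60 to 180 min was -2.10 ± 0.35 (adjusted p = 3.11e-08). The first value depends on scaling: it was -1.65 with RLE factors and -1.74 with DESeq2, while the median gene moved from 0.37 to -0.04 with RLE. Without the 0 min library of line 555, which held 113 of the 363 reads, it was -0.96 and no longer reached 2-fold. In the repeats glp-1 stood at 126.6, 177.4 and 97.3 CPM at A, at 50.4, 68.3 and 81.9 CPM at B and at 8.07, 9.73 and 11.98 CPM at C. All A values lay above all B values and all B values above all C values. The A to B change of -0.93 ± 0.35 (adjusted p = 0.0327) was short of 2-fold, and the B to C change of -2.79 ± 0.71 (adjusted p = 0.00109) passed.

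lin-12 had 3 reads in 3 of the 20 libraries at 0 min and 59 reads in 17 libraries at 60 min, a ratio of summed CPM of 21.3 (95% counting interval 6.95 to 106). No strain had less at 60 than at 0 min, and 17 had more. The edgeR fit, which does not pair strains, gave a log2 change of 3.83 ± 0.51 (adjusted p = 2.42e-11). The stage medians were 48.1, 58.8 and 27.98 CPM at 60, 180 and 270 min, with highest values of 110, 197 and 97.5 CPM, and each of these stages had libraries at 0. The step from 60 to 180 min was 0.59 ± 0.29 (adjusted p = 0.0824), with 9 strains higher and 10 lower. The step from 180 to 270 min of -0.77 ± 0.28 (adjusted p = 0.0268) was under 2-fold. From 270 to 440 min lin-12 fell by 2.63 ± 0.43 (adjusted p = 3.02e-08), lower in 15 strains and equal in 5, to a mean of 3.28 ± 7.79 CPM.

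In the repeats lin-12 was 0 in all 3 libraries at A, which held 612044 counts and allow up to 4.90 CPM. At B it was 41.7, 17.1 and 37.8 CPM, at least 7.85-fold higher by summed CPM (edgeR fit, adjusted p = 7.60e-06). At C it was 88.7, 87.5 and 35.9 CPM, and at D 54.5, 34.0 and 36.9 CPM. At E it was 4.56, 10.5 and 15.2 CPM, below every D value (log2 change -1.37 ± 0.51, adjusted p = 0.0213), but DESeq2 did not call it (-1.28), nor was it called without replicate 1 of D (-1.27) or replicate 2 of E (-1.47). No read was left at G.

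The change of places was tested within strains as the ratio of lin-12 to glp-1, each with 20 CPM added. The log2 ratio was -3.21 at 0 min, -0.21 at 60 min and 1.07 at 180 min. The step from 0 to 60 min of 3.01 ± 1.14 (SD, n = 20) was upward in 20 of 20 strains, with p = 1e-05, the smallest that 100000 random sign flips can give (two-sided permutation test, adjusted p = 0.00012 over 12 ratio tests). From 60 to 180 min the mean change over the 20 strains was 1.28 ± 1.55, up in 16 and down in 2 (adjusted p = 0.00636). At that step the edgeR fit called the fall of glp-1 but not the change of lin-12 (adjusted p = 0.0824), so the ratio mainly restates the fall of glp-1. From 270 to 440 min the ratio came back by -1.17 ± 1.17, down in 16 strains and up in 1 (adjusted p = 0.00108). There the edgeR fit called lin-12 lower but not glp-1 (0.03 ± 0.88, adjusted p = 0.984), so this step mainly restates the fall of lin-12. The repeats, which were not tested for this ratio, did not show the return: lin-12 held 64.7% of 17 receptor reads at E (exact 95% interval 38.3 to 85.8%) and 70% of 20 at F (45.7 to 88.1%). It was the higher receptor in 2 of 3 libraries and equal in 1 at both points. Of all receptor reads, glp-1 made up 99.2% at 0 min (363 of 366, exact 95% interval 97.6 to 99.8%), 66.5% at 60 min (59.0 to 73.4%) and 19.9% at 180 min (13.8 to 27.1%). lin-12 exceeded glp-1 in 0 of 20 strains at 0 min, in 4 at 60 min, in 16 at 180 min and in 14 at 270 min.

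After 270 min both receptors were scarce. From 440 to 830 min glp-1 had a median of 8.79, 0 and 0 CPM, and lin-12 a median of 0 CPM at each stage. The fit called a fall of glp-1 from 650 to 830 min (-1.78 ± 0.55, adjusted p = 0.00618). Of the 31 glp-1 reads at 650 min, 22 came from line 550, and without that library the change was -0.42 (adjusted p = 0.683). The same library held 700 CPM of the 4 maternal markers, against 0 to 447 CPM in the other 19 libraries, and 1802 CPM of the 6 yolk genes, against 21.9 to 3166 CPM. Their part in the glp-1 value was not tested.

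**Figure D1:**
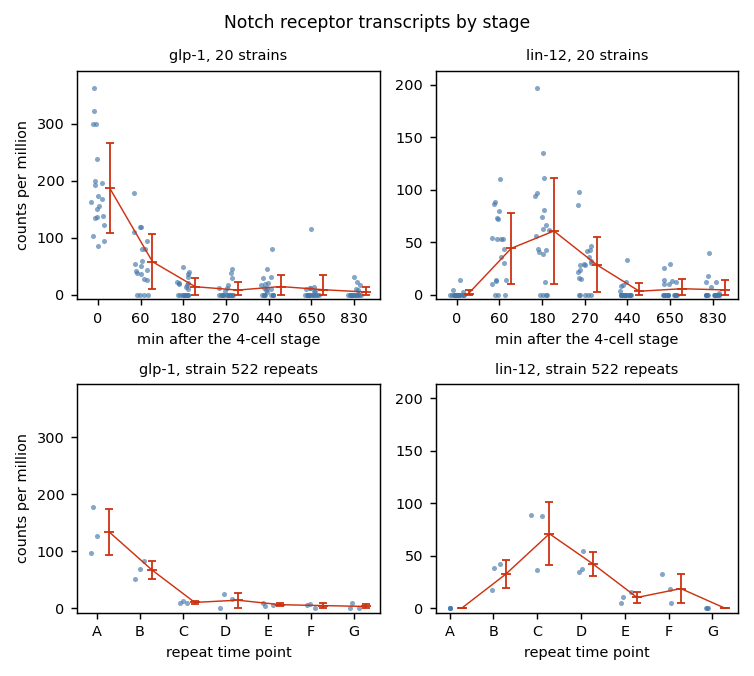
Levels of glp-1 and lin-12 in CPM, in the 20 strains by minutes after the 4-cell stage (top) and in the line 522 repeats by time point (bottom). Blue points are libraries, and red marks are means with SD, drawn no lower than 0. glp-1 falls from a mean of 187 CPM at 0 min as lin-12 rises from 1.06 to 44.1 CPM at 60 min.

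Among the ligands, apx-1 was present at 0 min and fell, dsl-3 rose by 180 min and fell to a few reads by 440 min, and lag-2 stayed near the limit of detection. apx-1, the ligand that the P2 blastomere presents, ran from 0 through a median of 95.3 to 328 CPM at 0 min, with 18 of 20 libraries above 0. At 60 min its highest value was 71.6 and its median 27.9 CPM, and 18 strains were lower than at 0 min while 1 was higher. The means were 116 ± 88.4, 27.7 ± 24.4 and 11.6 ± 14.5 CPM (SD, n = 20) at 0, 60 and 180 min.

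apx-1 fell from 0 to 60 min by 1.09 ± 0.27 on the log2 scale (adjusted p = 0.000268), and by 1.68 with RLE and 1.85 with DESeq2. The next step of -1.15 ± 0.34 (adjusted p = 0.00229) lost its call with RLE (-0.82), with DESeq2 (-0.88) and without the 60 min library of line 522 (-0.99). From 270 to 440 min apx-1 fell again, by 1.55 ± 0.45 (adjusted p = 0.00159), from a mean of 19.8 ± 19.6 to 3.24 ± 5.67 CPM. In the repeats apx-1 was 337.5, 342.1 and 402.3 CPM at A and 92.1, 85.4 and 91.4 CPM at B, with a log2 change of -1.82 ± 0.28 (adjusted p = 9.99e-08), and groups that did not overlap. Levels at A lay above the 74.8 CPM of the line 522 library in the strain table, which rests on 6 reads. That table and the repeats were counted and scaled apart, and the difference was not tested. From B to C apx-1 fell further, by 1.59 ± 0.46 (adjusted p = 0.00527), to 16.1, 48.6 and 35.9 CPM.

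dsl-3 encodes a member of the DSL family to which APX-1 and LAG-2 belong. At 0 and 60 min its median was 0 CPM. At 180 min it ran from 42.1 in line 597 through 212 to 302 CPM in line 555, and at 270 min from 263 in line 536 through 594 to 899 CPM in line 570. All 20 strains rose at each of these steps, and the ranges of 180 and 270 min overlapped. From 60 to 180 min the log2 change was 4.74 ± 0.40 (adjusted p = 1.06e-24), and from 180 to 270 min 1.60 ± 0.21 (adjusted p = 8.32e-12). By 440 min 7 of 20 libraries held any dsl-3, the highest at 127 CPM, which lies below every value at 270 min. That fall was -5.89 ± 0.32 (adjusted p = 3.11e-44), and the summed reads dropped from 1132 to 15.

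In the repeats dsl-3 was 306.5, 194.5 and 179.7 CPM at C and 549.1, 564.5 and 551.3 CPM at D, after 1 read at A and 2 at B. At E it was 0, 20.9 and 12.2 CPM. The steps were 6.21 ± 0.58 from B to C (adjusted p = 1.25e-15), 1.30 ± 0.27 from C to D (adjusted p = 0.000181) and -4.75 ± 0.36 from D to E (adjusted p = 2.22e-21), and at each of the 3 steps the groups stood apart. Of the reads of the 3 ligand genes, apx-1 held 96.1% at 0 min (172 of 179, exact 95% interval 92.1 to 98.4%). dsl-3 held 90.1% at 180 min (86.8 to 92.8%) and 96.5% at 270 min (95.3 to 97.5%), and exceeded apx-1 in 20 of 20 strains at both stages.

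lag-2, a ligand of the larval gonad and vulva, had 0 to 8 reads per stage over all 20 libraries and did not pass the filter on low counts, and with no filter no step of it was called. Its absence at 0 min allows up to 1.75 CPM. In the repeats it had 1 to 7 reads per time point. The ratio of lag-2 to apx-1 rose from 0 to 60 min by 1.497 ± 1.49 on the log2 scale (two-sided permutation test, adjusted p = 0.0009, up in 18 strains and down in 1). lag-2 had 0 and 4 reads at these stages, so this ratio restates the fall of apx-1, and the later steps, with 2 to 8 lag-2 reads a stage, are not read as a change of ligand.

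**Figure D2:**
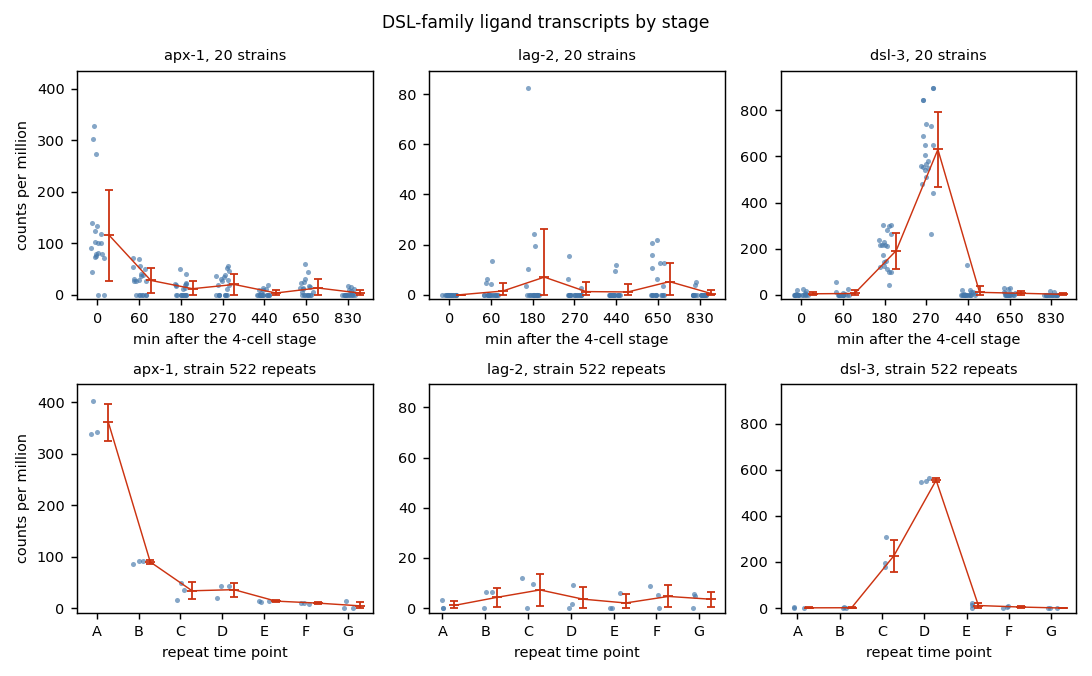
Levels of apx-1, lag-2 and dsl-3 in CPM by stage in the 20 strains (top) and by time point in the line 522 repeats (bottom), with libraries as blue points and means with SD in red, drawn no lower than 0. apx-1 is highest at 0 min and dsl-3 at 270 min, where each of the 20 libraries lies between 263 and 899 CPM. The highest lag-2 value, 82.6 CPM, is 2 reads in 1 library.

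lag-1, which encodes the DNA-binding factor on which both receptors act, was the member with the flattest course. It was held by 19 of 20 libraries at 0 min, with a mean of 110 ± 44.1 CPM, and by 15 to 20 libraries at every later stage. The means were 89.1 ± 57.6, 95.4 ± 41.6, 64.1 ± 45.8, 69.9 ± 31.0, 37.8 ± 27.8 and 47.8 ± 46.4 CPM from 60 to 830 min. Neighbouring stages overlapped throughout. No step of lag-1 in the strains passed both thresholds: the changes of -0.75 ± 0.25 from 180 to 270 min (adjusted p = 0.0129) and -0.63 ± 0.26 from 440 to 650 min (adjusted p = 0.0383) were under 2-fold. The step from 0 to 60 min was 0.08 ± 0.23 (adjusted p = 0.794) and turned to -0.44 with RLE and -0.45 with DESeq2. In the repeats lag-1 was 47.3, 61.2 and 51.3 CPM at D and 114.0, 79.6 and 51.8 CPM at E. That rise of 1.23 ± 0.33 was called (adjusted p = 0.00119) although the groups overlap, and it was lost without replicate 1 of E (0.81). In the strains the same step was 0.42 ± 0.26 (adjusted p = 0.16).

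The REF-1 family genes were highest together at 60 min. ref-1 already had reads at 0 min, whereas hlh-25, hlh-27 and hlh-29 had none there and at most 1 read each at 180 min. hlh-27 had no read in 1710480 counts at 0 min. At 60 min every strain held it, from 115 in line 555 through a median of 169 to 338 CPM in N2, with a mean of 183 ± 58.9 CPM (SD, n = 20). At 180 min 1 read remained. The rise was at least 104-fold against a floor of 3 reads over the 20 libraries (edgeR fit, adjusted p = 5.65e-29). For the fall the ratio of summed CPM was 319 (95% counting interval 56.8 to 12644), and the edgeR log2 change was -6.61 ± 0.42 (adjusted p = 1.98e-28). The 60 min values lay above all values of 0 and 180 min. A further fall was called from 270 to 440 min, from 5 reads in 3 libraries to none (adjusted p = 0.025), but 3 of those reads came from line 555 and the call was lost without it (adjusted p = 0.141).

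In the repeats hlh-27 was 236.8, 187.9 and 198.6 CPM at B and 0 in all libraries at A and C. By summed CPM the rise was at least 44.6-fold (edgeR fit, adjusted p = 3.20e-16) and the fall at least 22.6-fold (edgeR fit, adjusted p = 3.37e-12). hlh-25 ran from 0 through a median of 55.8 to 192 CPM at 60 min in the strains, where 17 of 20 libraries held 126 reads in all. It had 0 reads at 0 min and 1 at 180 min, so its rise was at least 45.6-fold. It did not pass the filter in the strains. With no filter its rise (adjusted p = 2.12e-27) and fall (adjusted p = 1.44e-24) were called. It passed the filter in the repeats, but only through its reads at B. There it was 76.7, 68.3 and 69.3 CPM at B and 0 in every library at A and C. By summed CPM it was at least 14.96-fold higher than at A (edgeR fit, adjusted p = 5.33e-09) and at least 7.58-fold higher than at C (edgeR fit, adjusted p = 3.23e-06).

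hlh-29 had 13 reads in 8 of 20 libraries at 60 min and none at 0 or 180 min, at least 4.70-fold and 4.82-fold higher by summed CPM. It did not pass the filter, and with no filter both steps were called (adjusted p = 0.000382 and 0.000579). In the repeats it had 6 reads at B and none at any other time point, and with no filter neither step was called (adjusted p = 0.121 and 0.316). RefSeq places hlh-25, hlh-26 and hlh-27 within a few genes of each other and hlh-28 next to hlh-29. Near-identical copies can share reads, so the split of reads within each cluster is uncertain. hlh-26 had 38 reads and hlh-28 had 6 reads at 60 min, and neither had a read at 0 or 180 min. hlh-27 exceeded hlh-25 in 19 of 20 strains at 60 min and equalled it in 1.

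ref-1, the gene for which the family is named, had a longer course. At 0 min 10 of 20 libraries held it, with a highest value of 49.9 CPM. At 60 min it ran from 0 through 113 to 336 CPM in line 575, and 19 strains were higher than at 0 min. At 180 and 270 min its medians were 40.8 and 36.2 CPM, and at 440 min 6 libraries held 12 reads. The log2 changes were 2.72 ± 0.30 from 0 to 60 min (adjusted p = 4.47e-15), -1.75 ± 0.27 from 60 to 180 min (adjusted p = 6.18e-09), -0.17 ± 0.32 from 180 to 270 min (adjusted p = 0.745) and -2.48 ± 0.45 from 270 to 440 min (adjusted p = 4.55e-07). A single value of 177 CPM at 830 min is 1 read in the library of 5653 counts.

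In the repeats ref-1 was 21.1, 28.5 and 19.5 CPM at A, 175.4, 102.5 and 157.6 CPM at B, 0, 29.2 and 11.98 CPM at C, and 38.2, 40.8 and 60.9 CPM at D. Values at B lay above all others, and those at D above those at C. The steps were 2.83 ± 0.40 (adjusted p = 1.21e-08), -3.67 ± 0.55 (adjusted p = 6.34e-08) and 1.89 ± 0.65 (adjusted p = 0.0436). The second rise, from C to D, rests on 4 reads at C. It was not called with RLE (1.73) or DESeq2 (1.76), or without replicate 1 of C (1.51) or replicate 3 of D (1.87), and the strains did not show it. From D to E ref-1 fell by 2.61 ± 0.57 (adjusted p = 6.66e-05).

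**Figure D3:**
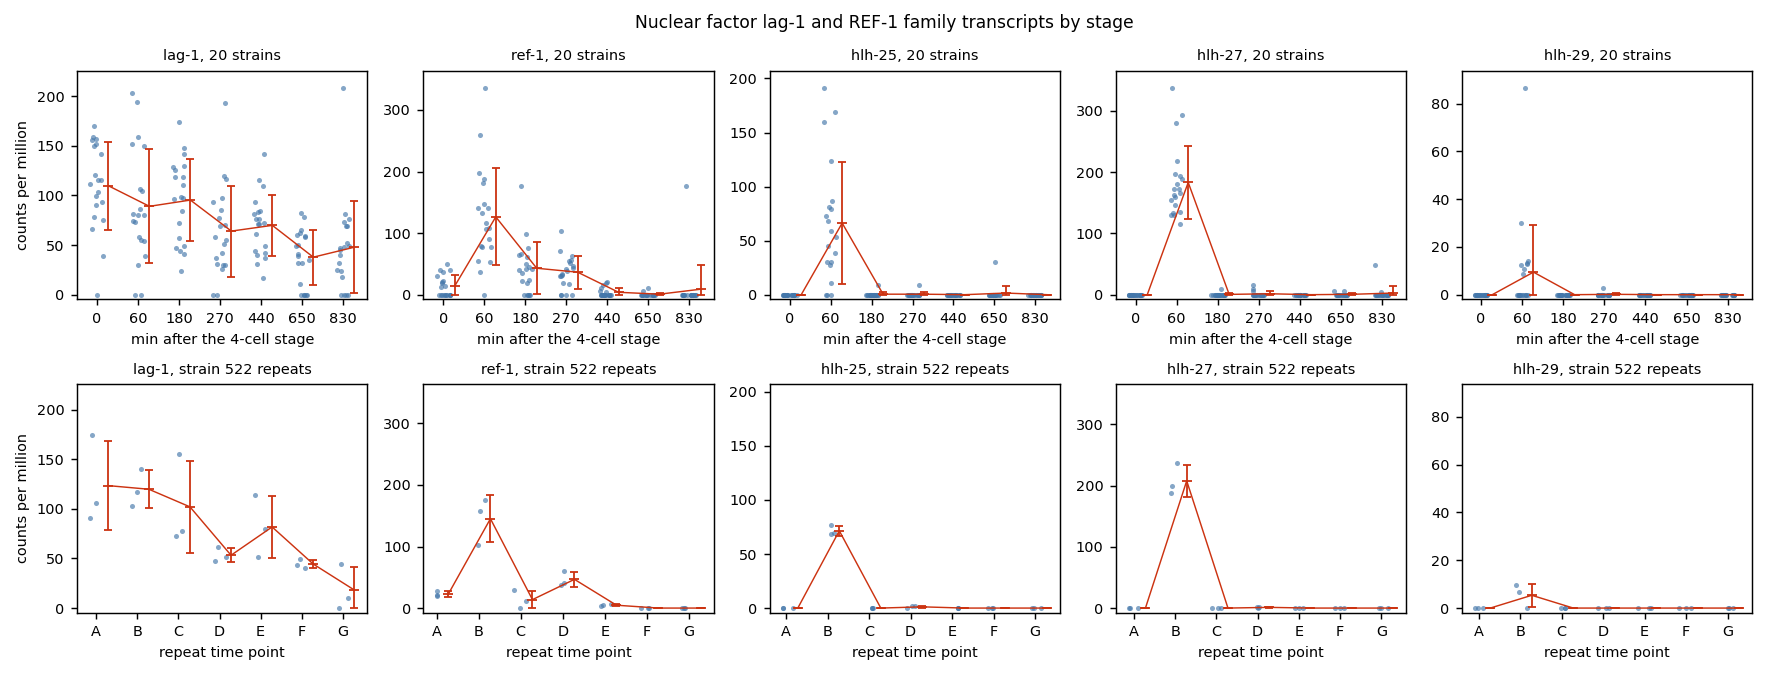
Levels of lag-1 and of the REF-1 family genes in CPM by stage in the 20 strains (top) and by time point in the line 522 repeats (bottom), with libraries as blue points and means with SD in red, drawn no lower than 0. hlh-27 lies between 115 and 338 CPM in the 20 strains at 60 min and is 0 in every library at 0 min, while lag-1 stays between means of 110 and 37.8 CPM.

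Set in order, the members peaked in 4 groups. glp-1, apx-1 and lag-1 were highest at 0 min, the REF-1 family genes at 60 min, lin-12 and lag-2 at 180 min, and dsl-3 at 270 min. By mean CPM the repeats gave the same position for 10 of 10 members. lag-2 rests on very few reads in both sets, and by summed reads it was highest at F in the repeats (6.47 CPM, against 6.45 CPM at C). In the strains the peaks of lag-1 at 0 min and of lin-12 at 180 min were not called apart from 60 min. Of the summed stage means, glp-1 had 63.5% and apx-1 59.6% at 0 min, hlh-27 97.3% at 60 min, ref-1 54.1% at 60 min, lin-12 41.0% at 180 min and dsl-3 74.3% at 270 min. lag-1 spread from 21.4% at 0 min to 7.36% at 650 min.

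**Figure D4:**
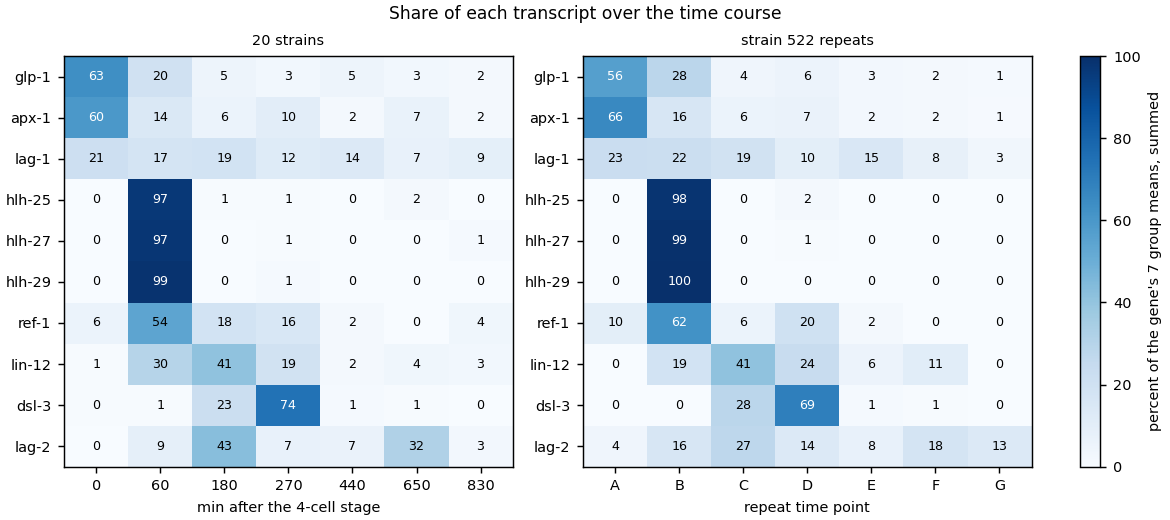
Share of each transcript's 7 group means that falls at each stage, in percent, in the 20 strains (left) and the line 522 repeats (right). Rows run from transcripts present at 0 min to late ones: glp-1 has 63.5% at 0 min, hlh-27 97.3% at 60 min and dsl-3 74.3% at 270 min. lag-2 rests on very few reads.

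Of the 10 members, 7 passed the filter in the strains and 8 in the repeats. The 3 left out in the strains were lag-2, hlh-25 and hlh-29. hlh-27 passed there only through its reads at 60 min. Its rise to 60 min and fall by 180 min, counted below, are thus not independent of the filter. A call needs an adjusted p under 0.05 and at least a 2-fold change. From 0 to 60 min 3 of 7 rose and 2 fell, where 33.1% of the 8355 genes tested were called (19.5% higher and 13.5% lower). From 60 to 180 min 1 rose and 4 fell, against 37.9% of all genes (19.2% higher, 18.7% lower). From 180 to 270 min 1 rose, against 17.9% (11.1% higher, 6.8% lower), a share near the background. From 270 to 440 min 5 fell, against 42.5% (21.3% higher, 21.2% lower). With DESeq2, with no filter and without the rerun libraries 4 fell. The call of hlh-27 among the 5 was lost without the 270 min library of line 555. From 440 to 650 min, where 34.4% of genes were called (16.3% higher, 18% lower), edgeR called 0 of 7 members and DESeq2 also 0, but with strain as a block edgeR called ref-1 lower (-1.55, adjusted p = 0.0307). From 650 to 830 min 1 fell, against 20.2% (5.78% higher, 14.4% lower), again near the background. From 440 to 650 min 1 member, lag-1, had an adjusted p under 0.05 (edgeR fit, 0.0383), but its change of -0.63 was under 2-fold. The median log2 change of the members tested was 0.46 against 0.37 for all genes from 0 to 60 min. It was -1.15 against -0.05 from 60 to 180 min and -0.17 against -0.04 from 180 to 270 min. At the later steps it was -1.55 against -0.16 from 270 to 440 min, 0.31 against -0.15 from 440 to 650 min and -1.10 against -0.26 from 650 to 830 min.

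In the repeats 4 of 8 rose and 1 fell from A to B, where 23.9% of 11624 genes were called (13.6% higher and 10.3% lower). hlh-25 and hlh-27 are among the 4, and both passed the filter only through their reads at B. From B to C 1 rose and 5 fell, against 24.3% (10.4% higher, 13.9% lower). The same genes, hlh-25 and hlh-27, are among the 5. Their calls at both steps are not independent of the filter. From C to D 2 rose, against 10.6% (7.3% higher, 3.28% lower), and from D to E 1 rose and 3 fell, against 39.8% (27.5% higher, 12.3% lower). ref-1 was the 1 call from E to F, from 5 reads to none, where 37.6% of genes were called (23.2% higher, 14.4% lower). lin-12 was the 1 call from F to G, from 14 reads to none and at least 3.68-fold lower, where 14.7% were called (5.92% higher, 8.77% lower). Leaving out 1 library removed the ref-1 call in 5 of 6 cases, and leaving out replicate 2 of G removed the lin-12 call (adjusted p = 0.0693).

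Other genes of the pathway were taken from lists. Of 12 further DSL and DOS ligand genes, 5 could be tested in the strains. From 0 to 60 min 3 of the 5 rose and none fell: dsl-2 by 5.76 ± 0.29 on the log2 scale (adjusted p = 1.99e-50), dsl-1 by 5.58 ± 0.50 (adjusted p = 7.66e-20) and osm-11, a secreted co-ligand, by 1.60 ± 0.41 (adjusted p = 0.000424). The same 3 fell from 60 to 180 min, by 2.78 ± 0.21, 1.79 ± 0.31 and 1.65 ± 0.41. Of all genes, 19.5% were called higher at the first of these steps and 18.7% lower at the second. dsl-2 stood at 901 ± 254 CPM at 60 min and at 19.2 ± 19.02 CPM at 0 min. dsl-6 peaked later, with 218 ± 131 CPM at 440 min, after rises of 3.19 ± 0.59 and 3.01 ± 0.29 and before a fall of 5.96 ± 0.43. osm-7, another secreted co-ligand, rose by 6.33 ± 0.37 from 440 to 650 min, and osm-11 rose again by 2.89 ± 0.26 from 650 to 830 min. In the repeats dsl-1 and dsl-2 rose from A to B (adjusted p = 2.43e-13 and 1.32e-26), as 2 of 7 list genes tested, where 13.6% of all genes were called higher.

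Transcripts of the RNA-binding proteins that act on glp-1 mRNA fell as glp-1 did. All 5 list genes tested (pos-1, spn-4, puf-5, puf-6 and puf-7) fell from 0 to 60 min and again from 60 to 180 min in the strains. In the repeats all 5 fell from A to B and again from B to C. Of all genes, 13.5% and 18.7% were called lower at these steps in the strains, and 10.3% and 13.9% in the repeats. In the strains the median change was -1.61 against 0.37 for all genes at the first step and -2.92 against -0.05 at the second. pos-1, a repressor of glp-1 translation in posterior cells, fell from 5918 ± 2274 to 1387 ± 387 and then 243 ± 174 CPM. spn-4, an activator of glp-1 translation, fell from 1721 ± 314 to 331 ± 170 and then 102 ± 47.2 CPM. gld-1, the repressor in the germ line, had 24 reads at 0 min and was not tested. The 4 maternal markers moved alike, with 3 of 4 falling at the first step and 4 of 4 at the second. All 5 glp-1 regulators tested were also called lower from 650 to 830 min. The edgeR call of glp-1 at that step was lost without the 650 min library of line 550 (-0.42, adjusted p = 0.683), and DESeq2 called 0 members there. At that step 6 of 6 yolk genes (median log2 change -3.64), 4 of 4 maternal markers and the adult germline marker rme-2 were called lower too, against 14.4% of all genes. The 650 min library of line 550 held 322 of the 662 reads of the glp-1 regulators at that stage. The part of these markers in the fall was not tested.

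The receptor-processing genes, which encode the ADAM proteases and the gamma-secretase subunits, gave calls that depended on scaling. Of 6 tested, 0 were called from 0 to 60 min with edgeR and TMM scaling, but 3 fell with RLE and 3 with DESeq2 (aph-1, hop-1 and sel-12). All genes called lower there were 1903 of 8355 with RLE and 1898 with DESeq2. In the repeats 3 of 7 fell from A to B, namely aph-1, adm-4 and hop-1, where 10.3% of all genes were called lower. From 60 to 180 min the presenilin gene sel-12 rose by 1.46 ± 0.23 (adjusted p = 6.18e-09) and the second presenilin gene hop-1 fell by 2.64 ± 0.48 (adjusted p = 3.87e-07). These 2 of 6 are near the 37.9% of all genes called at that step, and with RLE 3 rose. sel-12 went from 40.6 ± 27.7 to 156 ± 74.3 CPM and hop-1 from 27.7 ± 31.3 to 5.95 ± 12.4 CPM. In the repeats sel-12 rose by 2.22 ± 0.35 (adjusted p = 1.44e-07) and hop-1 fell (adjusted p = 0.0318) at the matching step. From 440 to 650 min 4 of 6 fell, with log2 changes of -1.97 ± 0.30 for sel-12, -1.34 ± 0.25 for aph-1, -1.18 ± 0.29 for pen-2 and -1.10 ± 0.35 for aph-2. At that step 18% of all genes were called lower, and without N2, or without the libraries of low total, 2 of the 6 were called.

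Among 5 genes of the nuclear complex and its regulators, none was called from 0 to 60 min with TMM scaling and 1 fell with RLE. From 60 to 180 min epn-1, the epsin of ligand endocytosis, rose by 1.46 ± 0.20 (adjusted p = 9.36e-11) and sel-1, a gene of protein quality control, fell by 1.56 ± 0.24 (adjusted p = 2.89e-09). At that step 37.9% of all genes were called. Of 4 Notch targets known from other tissues, 1 could be tested. lst-1, a target in germline stem cells, declined from 469 ± 111 CPM at 0 min to 18.2 ± 20.0 CPM at 830 min, with no single step called in the strains. In the repeats its step from D to E was called (-1.52 ± 0.33, adjusted p = 7.34e-05). lip-1, sygl-1 and egl-43 had at most 10 reads per stage.

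Strains differed in some members. With stage in the model, strain was called for glp-1 (adjusted p = 1.77e-08), ref-1 (5.98e-09), dsl-3 (0.00859) and lin-12 (0.0283), which is 4 of 7 where 54.3% of all genes were called, a share near the background. With RLE 2 of 7 were called, glp-1 and ref-1, where 39.7% of all genes were called. The call of lin-12 was also lost with no filter (edgeR fit, adjusted p = 0.0984) and without the libraries of low total (0.0619). That of dsl-3 was kept in both (0.0451 and 0.0283). With no filter hlh-25 was called (0.00732), as 1 of 4 among 10 members, where 23.3% of all genes were called. apx-1 (adjusted p = 0.318), lag-1 (0.0543) and hlh-27 (0.398) were not. Each strain has 1 library per stage, so a strain and its 7 pools cannot be told apart. For ref-1, line 575 was highest at 60, 180 and 270 min, with 336, 176 and 104 CPM. For glp-1, line 550 was highest at 60, 650 and 830 min, with 179, 115 and 31.1 CPM. At 650 min that library held 22 of the 31 glp-1 reads and was also the highest in maternal markers. At 830 min it had 32201 counts, and no library of that stage held more than 2 glp-1 reads.

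The genes with stage means most like a member were sought for the 7 members that passed the filter in the strains. lag-2, hlh-25 and hlh-29 were thus left out. Likeness was the Pearson r of mean log2(CPM + 20) over the 7 stages. These genes were let-99, plk-2 and gei-14 for glp-1 (r of 0.998, 0.997 and 0.996). For apx-1 they were ztf-1, pas-7 and rab-21 (0.993, 0.984 and 0.984), and for hlh-27 fbxb-17, sdz-1 and tbx-38 (0.999 each). ttr-52, cpt-2 and piki-1 were most like dsl-3 (0.996, 0.992 and 0.990), and sde-2, tra-4 and cyn-8 most like ref-1 (0.986, 0.983 and 0.980). rad-8, pir-2 and miro-1 followed lag-1 (0.955, 0.949 and 0.949). For lin-12 they were the histone genes his-20, his-4 and his-54 (0.988, 0.985 and 0.985), which have near-identical copies. Over the 7 time points of the repeats the likeness to lin-12 was 0.416, 0.235 and 0.256, whereas it was 0.936, 0.953 and 0.979 for the genes beside glp-1 and 0.999, 0.993 and 0.998 for those beside hlh-27. In the repeats it was also low for cpt-2 beside dsl-3 (0.324) and for rad-8 beside lag-1 (0.653), and for the other genes named it lay between 0.727 and 0.980. All 7 means come from the same libraries for both genes of a pair, and the genes were chosen among all that passed the filter for this likeness.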

How the data were processed

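CEL-Seq libraries of polyA RNA from whole-embryo pools were analysed. The authors deposited whole-number raw counts for each gene, and the submitters' processing notes name CASAVA 1.8 and Bowtie2 2.1.0. The counting program is not given in the sources used here, nor are build, annotation and strand. Since the labels mention no molecular identifiers, intervals (95%) and floors (3 counts over the group) express counting error alone. RefSeq locus tags matched 20063 of 20687 identifiers. In the repeat sheet 38.8% to 70.2% of reads were unaligned, and 17.8% to 47.7% of the aligned ones lay outside features; such rows entered no total. A further 7 columns of per-sample values and the second copy of 8 rerun libraries were unused. No 2 of the libraries used held identical counts.

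CPM is a gene's count divided by the library's gene counts, scaled to a common total. All 140 strain libraries, and separately the 21 repeats, entered 1 quasi-likelihood fit (edgeR 4.0.16, R 4.3.3) with TMM scaling, filterByExpr with a minimum count of 2, and stages or time points as groups. Tests were two-sided, with Benjamini-Hochberg adjustment over all genes tested, and a call needs an adjusted p under 0.05 and at least 2-fold. Positive log2 changes mean higher later. Within-strain ratios used log2(CPM + 20) and 100000 sign flips (Python 3.11.15, SciPy 1.17.1). Alternatives were RLE scaling, DESeq2 1.42.0, other filters, pseudocounts of 5 and 50 CPM, blocks and left-out libraries; leaving out rerun libraries, or the library with most reads of a member, was chosen after seeing the data.

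Because each strain is 1 line sampled at every stage, strains pair libraries: deviations from stage means had a median correlation of 0.0825 within strains and -0.00879 between them (4043 genes). Members and lists were chosen with earlier results of these data known. The text names all 10 members and the 3 genes most like each of the 7 that passed the filter in the strains. It names at most 4 called genes per list and step, those of smallest p. Levels of other list genes named were chosen after their values were seen.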

Additional observations from a re-analysis of the deposited data

How the results depend on the processing

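Of the alternatives for member calls other than leaving out repeats, 209 kept direction and call and 17 lost the call, over 8 results. Leaving out 1 repeat library kept 103 and lost 11, over 5 results. Fitting each pair of groups alone with the default filter tested far fewer genes and says little of the members. No member was left to test from 0 to 60, 60 to 180, 440 to 650 or 650 to 830 min, so 0 were called, and the 1 member tested from 270 to 440 min was called. All genes called were 428, 603, 179, 463, 543 and 237 over the 6 steps. In the repeats these fits called 3 of 4 members tested from B to C, 1 of 1 from C to D, 0 of 1 from E to F and 0 of 1 from F to G, and 1845, 1367, 607, 3014, 2665 and 1136 genes. Without a filter 5086 genes were called from 440 to 650 min and 2974 from 650 to 830 min.

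DESeq2 called 2 members from 180 to 270 min, 0 from 650 to 830 min, 1 from C to D and 0 from E to F. All genes it called were 1381 and 1525 of 8355 at these steps of the strains, and 937 and 3216 of 11624 at those of the repeats. RLE called 1 from C to D and 2 members for the strain effect. Without the libraries of low total, and without the rerun libraries, 1 member was called from 440 to 650 min, apx-1, as higher (1.19 and 1.65). With strain as a replicate block 1 member was called there (ref-1, -1.55, adjusted p = 0.0307), and no member call was lost. Repeat numbers did not pair libraries (median correlation -0.00197 over 7820 genes). A replicate block on them left 1 member called from C to D (ref-1, 1.87, adjusted p = 0.0606).

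The receptor ratio from 650 to 830 min, 0.011, turned to -0.027 with 5 CPM added and to -0.0075 without the rerun libraries. The ratio of lag-2 to apx-1, which rests on very few lag-2 reads, missed the threshold from 60 to 180 min (0.69, adjusted p = 0.0522) and passed with 50 CPM added (0.40), with no replicate block (0.69) and without the rerun libraries (0.68). It passed from 270 to 440 min (0.63, adjusted p = 0.0436) and missed with 5 CPM added (1.19), without N2 (0.58) and without the rerun libraries (0.63). Leaving out 1 repeat gave 1 to 2 members from C to D and 0 to 2 from E to F, and otherwise 5 to 6, 6 to 7, 3 to 5 and 1 over A to B, B to C, D to E and F to G.

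Scaling moved the split of higher and lower calls from 1632 and 1130 to 831 and 1903 (RLE) or 644 and 1898 (DESeq2) from 0 to 60 min. From 60 to 180 min it went from 1602 and 1561 to 2174 and 1175 (RLE) or 2097 and 1128 (DESeq2). The median of all genes shifted by -0.41 and 0.29 with RLE at these steps. DESeq2 gave 684 and 697 from 180 to 270 min, against 927 and 568, and leaving out the rerun libraries 1063 and 390. Without N2 the split went from 1776 and 1772 to 2011 and 1177 from 270 to 440 min, from 1365 and 1508 to 1705 and 1009 from 440 to 650 min, and from 483 and 1204 to 594 and 907 from 650 to 830 min. Without the libraries of low total the last of these steps gave 643 and 921 and the one before it 1696 and 1148. From C to D, 848 and 381 became 732 and 509 (RLE) or 512 and 425 (DESeq2). In the strains lag-2, hlh-25 and hlh-29 did not pass the filter on low counts. With no filter 10 members were tested, and 7 were called from 0 to 60 min and 6 from 60 to 180 min. Of the 18316 genes tested that way, 3344 and 4052 were called at these steps. Levels after 440 min rest on few reads for every member but lag-1.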
